A study of Oryza sativa with 6 samples.

Results

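The beta-glucosidase genes that carry a bglu name (Os, the chromosome number, bglu and a running number) were followed in shoots of the rice dst mutant and of the wild-type japonica cultivar Zhonghua 11. The members were chosen by name from the platform annotation and a RefSeq gene table, in which 31 genes carry such a name. Of these, 27 genes have at least 1 probe set on the array, out of 17905 genes that do, and together they are read by 39 of its 57194 rice probe sets. The other 4, Os1bglu2, Os1bglu4, Os5bglu21 and Os6bglu24, are not analysed here. Where a gene has several probe sets, the brightest over all 6 arrays stood for it, so mean signal is the measured value that picked its probe set. The family was taken up with the change of Os9bglu30 already known, so that change is given as a description of these arrays and not as independent support for anything.

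Shoots were 25 days old and came from plants kept in a cycle of 11 h light (26 °C) and 13 h dark (22 °C), with no stress treatment named in the labels, and 3 biological replicates of each were read on 1 Affymetrix rice array apiece. The parent cultivar of the dst line is not stated in its labels, and the transcript of the mutated gene was not analysed here. The question of the series was how transcript levels differ between the mutant and the wild type. The DST protein is a zinc finger regulator of stomatal aperture, and through it of tolerance to drought and salt in rice.

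Beta-glucosidases of glycoside hydrolase family 1 remove a glucose unit from the end of a short cell wall oligosaccharide or from a glucose conjugate. In plants such conjugates store monolignols, the building blocks of lignin, as well as hormones and defence compounds in an inactive form, and the hydrolase releases them. Some members have turned to other chemistry and pass a sugar from one molecule to another. Known roles within the rice family range from oligosaccharide breakdown in the wall to lignin precursors, jasmonate conjugates and chloroplast membrane lipids.

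The deposited signals are linear array units, and rice probe sets had a median of 123.9 to 131.3 on the dst arrays and 117.6 to 140.9 on the wild-type arrays. The third array of either group had a lower highest signal, 32620 in dst and 31461 in the wild type, than the other arrays, which reached 41451 to 43119. The arrays carry signal of leaf photosynthesis genes, with CAB2R, a chlorophyll-binding protein gene, at 31964 to 38940 in dst and 30465 to 42915 in the wild type. Of 4 such shoot markers, 3 were above 21268 on every array, and RBCS1 lay at 51.4 to 84.5 in dst and 55.4 to 87.0 in the wild type. Summed over the lists, 4 root markers reached 1704 to 1972 in dst and 1700 to 1992 in the wild type, most of it from the silicon transporter gene Lsi1, while Lsi2 stayed at or under 16.7 on every array. The 3 seed storage markers summed to 505.4 to 581.8 in dst and 664.2 to 671.7 in the wild type, of which GLUA2 made up most, and GLUA1 was at or under 5.6 throughout. The 2 anther and pollen markers summed to 135.2 to 164.0 in dst and 78.4 to 199.6 in the wild type. Their part in any result on the beta-glucosidases was not tested.

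Signals were compared as log2 values with limma across all probe sets that passed a filter on low signal (a geometric mean of at least 70.49 over the 6 arrays), with Benjamini-Hochberg adjustment over all of them and a threshold of 0.05. The filter kept 26 of the 27 genes and 37 of the 39 probe sets. Os1bglu1, with a geometric mean of 71.7, lies just inside it, and Os12bglu38, with 63.8, just outside. The geometric mean of Os1bglu1 was 65.5 in dst, under the filter level, and 78.6 in the wild type. Os1bglu1 was therefore tested only through its wild-type values. No detection calls were used, so how far a low signal stands above background is unknown, and 3 arrays per group limit the precision of every value. In whole shoots, fewer cells of a type and less RNA per cell cannot be told apart.

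In dst shoots Os9bglu30 rose 1.90-fold and was the only gene of the family past the threshold in its brightest probe set, while 2 further genes, Os11bglu36 and Os4bglu10, were called only in dimmer probe sets. The signal fell in 2 of the 2 dimmer probe sets of Os11bglu36 and in 1 of the 2 of Os4bglu10. Of the 26 tested genes, 1 was called, 0 of them downward, beside 0.987% of all 16013 tested genes, and the other 25 did not pass. The family held no common direction. A higher mean in dst was found in 11 genes and a lower one in 15, that is 42.3% higher against 54.3% of all tested genes, and the median log2 change was -0.03 beside 0.02 over all tested genes. The family's median log2 signal was 9.79, 9.78 and 9.86 on the dst arrays, against 9.82, 9.89 and 9.80 on the wild-type arrays, so the groups overlapped. The sizes of the changes, regardless of sign, had a median of 0.23 on the log2 scale in the family and 0.16 over all tested genes. In 5 genes all 3 dst values lay above the 3 wild-type values, 19.2% of the family beside 11.3% of all tested genes. In 4 genes they lay below, 15.4% beside 7.9%. Among the 5 are Os5bglu20, which passed the filter only through its dst values, and Os9bglu30, whose change was known when the family was taken up. Their place in that count is no support, and both also enter the median size of the changes. An unadjusted p under 0.05 in limma was reached by 7 genes, 26.9% of the family, beside 12.6% of all tested genes. Os5bglu20 and Os9bglu30 are among these 7 too. This share is therefore no support either.

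**Figure D1:**
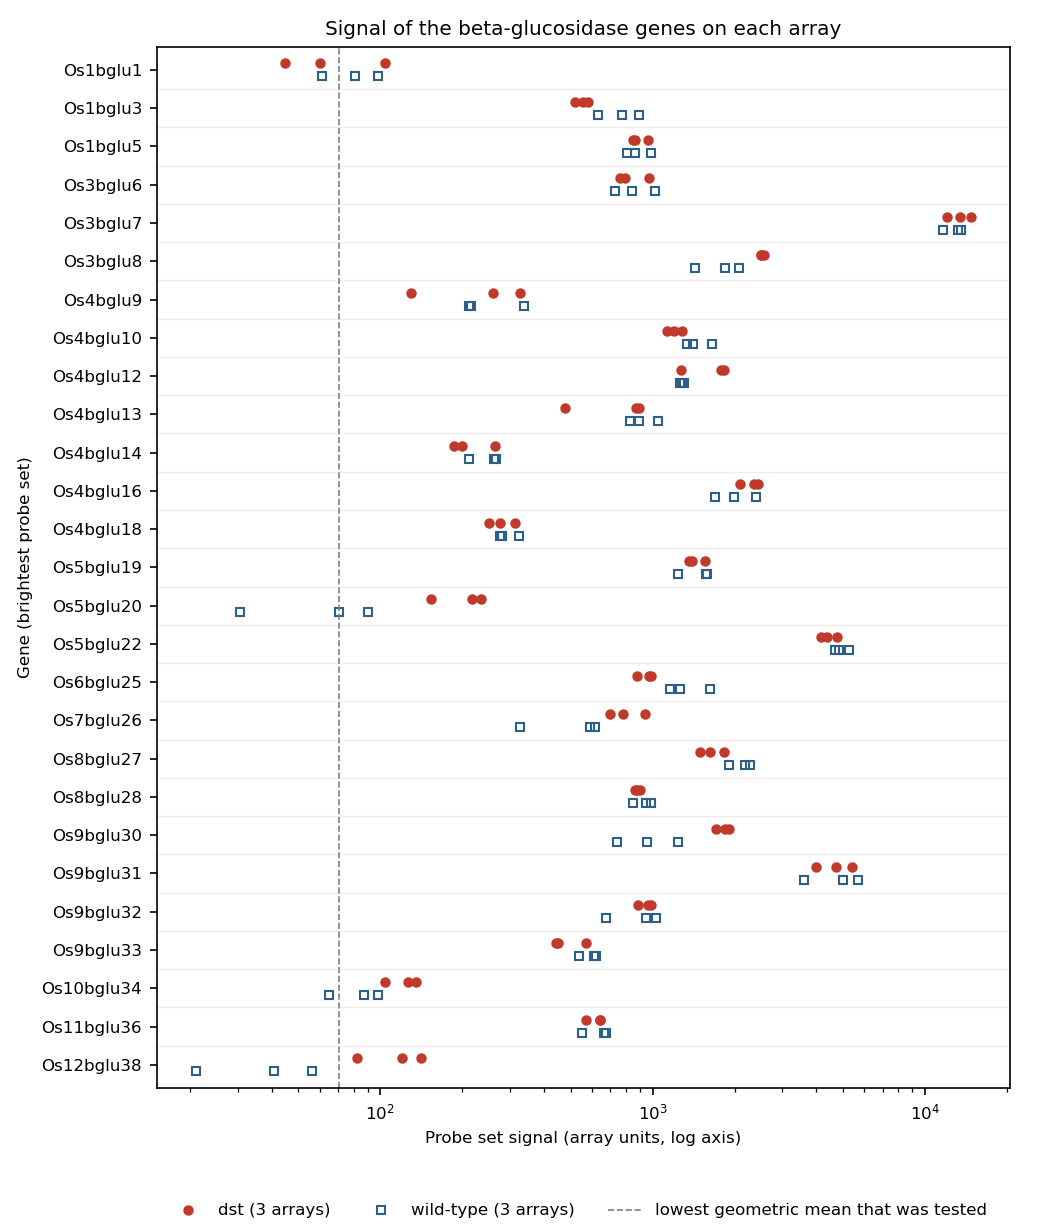
Signal of the brightest probe set of each of the 27 beta-glucosidase genes on each array, in array units on a log axis, with dst arrays as filled circles above wild-type arrays as open squares. The dashed line marks the lowest geometric mean that was tested, 70.49. In Os9bglu30, Os3bglu8, Os7bglu26, Os5bglu20, Os10bglu34 and Os12bglu38, which lay under the filter, the 3 dst values lie to the right of the 3 wild-type values, and in Os6bglu25, Os1bglu3, Os8bglu27 and Os4bglu10 to the left.

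Os9bglu30 had signals of 1902, 1841 and 1712 on the dst arrays, against 1238, 953.5 and 740.9 on the wild-type arrays. Every dst value lay above every wild-type value, and the wild-type values spread more widely than those of dst. The log2 change was 0.93 ± 0.18 (SE, 95% interval 0.53 to 1.32, adjusted p 0.0499 in limma). Its second probe set read 1489, 1498 and 1175 in dst, against 1298, 737.2 and 574.5 in the wild type. There the first wild-type array lay above the lowest dst array, so the groups overlapped, and the log2 change of 0.75 ± 0.26 did not pass. The changes of its probe sets differed by 0.17, with a 95% interval of -0.23 to 0.58. The call lies at the edge of the threshold. Without dst replicate 1, 2 or 3 its adjusted p in limma was 0.209, 0.179 and 0.0946, and without wild-type replicate 2 or 3 it was 0.198 and 0.0894, whereas without wild-type replicate 1 it was 0.0145. The log2 change itself stayed between 0.74 and 1.11 in these fits.

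Os11bglu36 is also named OsSFR2 in the gene table. In Arabidopsis SFR2 is known as a galactosyltransferase of the chloroplast envelope that remodels galactolipids and is needed for freezing tolerance, a member of the family that no longer works mainly as a hydrolase. It has 3 probe sets, of which 2 passed, and signals of different probe sets are not compared as levels. The brightest read 639.9, 641.8 and 569.7 in dst, against 674.3, 665.6 and 549.6 in the wild type. These values overlapped, with a log2 change of -0.03 ± 0.15 (95% interval -0.36 to 0.30). The next in brightness read 487.7, 438.9 and 480.4 in dst, against 842.7, 831.9 and 760.2 in the wild type. In that probe set no dst array reached the lowest wild-type array, and the signal fell 1.73-fold, a log2 change of -0.79 ± 0.14 (adjusted p 0.0307 in limma). The dimmest, whose identifier ends in s_at, read 236.8, 242.4 and 285.4 in dst, against 727.1, 649.0 and 500.7 in the wild type. It fell 2.43-fold, a log2 change of -1.28 ± 0.19 with an adjusted p of 0.0157.

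The choice of the probe set that stands for Os11bglu36 was close, since the geometric means over 6 arrays were 621.6 for the brightest and 616.3 for the next. With the mean of its 3 probe sets in place of the brightest, the log2 change was -0.70 (adjusted p 0.0765 in limma). The suffix s_at is Affymetrix's mark for a probe set whose probes match more than 1 transcript, so the s_at probe set may read more than this gene. The same limit holds for the second probe set of Os9bglu30 and the brightest of Os9bglu32, and x_at, on the brightest of Os1bglu1 and Os1bglu3 and the dimmer of Os4bglu16, marks probes open to cross-hybridisation. The difference between probe sets was fitted over all 3259 pairs of a gene's brightest and a dimmer tested probe set, of which 0.307% passed. That fit was chosen after the values were seen. The change of the brightest probe set of Os11bglu36 stood 1.26 ± 0.17 above that of the s_at probe set on the log2 scale (95% interval 0.85 to 1.67, adjusted p 0.0518 in limma). It stood 0.77 ± 0.13 above that of the middle probe set, with an adjusted p of 0.121. Neither passed, and 0 of the 11 pairs of the family did, while 3 had an unadjusted p under 0.05. With each of the 6 arrays left out in turn, the middle probe set kept a log2 change of -0.84 to -0.74 and lost its call every time, at adjusted p between 0.0614 and 0.155. The s_at probe set kept a log2 change of -1.44 to -1.17, and lost its call without 4 of the arrays. For the s_at probe set the adjusted p in limma was 0.0858 without dst replicate 1, 0.0682 without dst replicate 2, 0.0507 without wild-type replicate 1 and 0.106 without wild-type replicate 2. It was 0.0247 without dst replicate 3 and 0.0178 without wild-type replicate 3.

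A control for RNA quality moved with the groups. The log2 ratio of 3' to 5' signal of the GAPDH controls was 1.01 to 1.36 on the dst arrays and 0.35 to 0.62 on the wild-type arrays. The same ratio for actin was 1.51 to 1.75 in dst and 1.66 to 1.76 in the wild type, and for cyclophilin 0.76 to 0.97 in dst and 0.75 to 1.13 in the wild type, so both overlapped. Where the probe sets of a beta-glucosidase gene lie along its transcript is not given in the sources used here, and a part of this ratio in the differences between probe sets was not tested.

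Os4bglu10 was the other gene called only in a dimmer probe set. The second brightest of its 3 read 387.0, 464.8 and 442.9 in dst, against 715.8, 741.8 and 721.2 in the wild type. The wild-type values lay close together and well above all 3 dst values, and the signal fell 1.69-fold, a log2 change of -0.76 ± 0.14 (adjusted p 0.0481 in limma). The brightest read 1196, 1134 and 1287 in dst, against 1410, 1648 and 1341 in the wild type. Its groups were apart by a narrow gap, and its log2 change of -0.28 ± 0.12 did not pass. The dimmest overlapped, with a mean of 329.6 ± 47.7 in dst and 324.9 ± 52.9 in the wild type (SD, n = 3 each). The change of the brightest differed from that of the second by 0.48 ± 0.17 on the log2 scale (adjusted p 0.619 in limma). The call of the second probe set was lost with any 1 of the 6 arrays left out, at adjusted p between 0.0915 and 0.209 in limma, while its log2 change stayed at -0.81 to -0.68. In limma its adjusted p was 0.0521 with the replicate block, 0.0974 with median centring and 0.0688 with no filter on low signal. It was 0.149 without the mean-variance trend and 0.162 with replicates 1 and 2 only. This probe set kept its call in 5 of 16 alternatives. Over all probe sets of the family, 4 of 37 were called, 1 upward and 3 downward, beside 0.924% of all 34316 tested probe sets. Those 4 belong to 3 genes, since the middle and the s_at probe set of Os11bglu36 are both among them. They also include Os9bglu30, whose change was known when the family was taken up. The share of called probe sets is therefore no support.

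**Figure D2:**
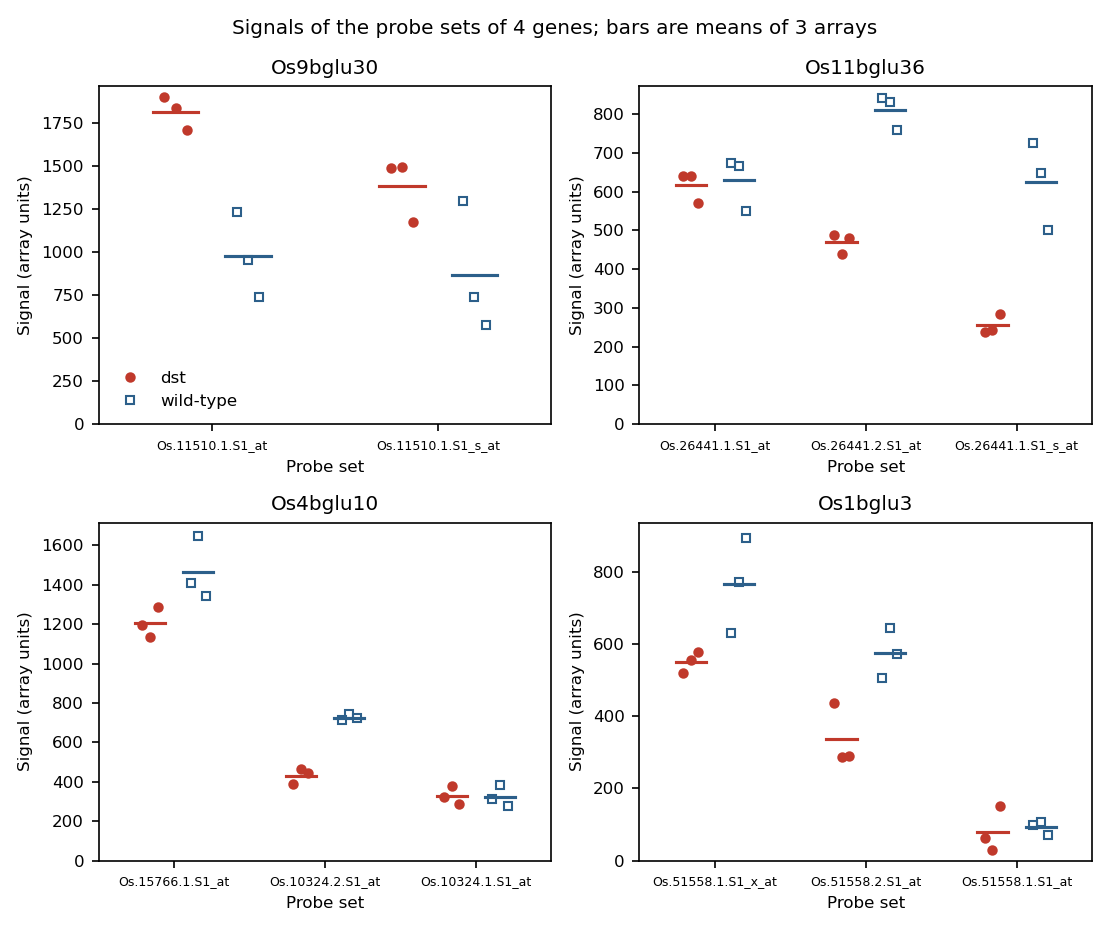
Signals of the probe sets of Os9bglu30, Os11bglu36, Os4bglu10 and Os1bglu3 in linear array units, with dst arrays as filled circles left of wild-type arrays as open squares, and bars at the mean of 3 arrays. In Os11bglu36 the brightest probe set overlaps between the groups while the other 2 are lower on all dst arrays, and in Os4bglu10 the middle probe set shows the widest gap.

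Among genes of cell wall sugars, Os3bglu8 and Os7bglu26 had all dst values above the wild type, and neither passed. Os3bglu7, also known as BGlu1, and Os3bglu8 are known to release glucose from short beta-linked oligosaccharides, and their genes lie side by side. Os3bglu7 read 13451, 14809 and 12012 in dst, against 13260, 13578 and 11638 in the wild type. Its values overlapped, with a log2 change of 0.06 ± 0.11 and a 95% interval of -0.19 to 0.32. Os3bglu8 read 2511, 2512 and 2566 in dst, against 2074, 1852 and 1437 in the wild type. Its dst values were nearly equal and all above the wild type, and the log2 change was 0.52 ± 0.14 (95% interval 0.20 to 0.83, adjusted p 0.185 in limma). Os7bglu26 is known to act on beta-mannosides as well as beta-glucosides. It read 779.0, 940.8 and 699.7 in dst, against 591.3, 615.5 and 325.4 in the wild type. The dst values were the higher ones, and the third wild-type array was the lowest of all 6. Its log2 change was 0.70 ± 0.25, with an adjusted p of 0.328.

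Os5bglu20 had dim signals, and its geometric mean was 198.5 in dst and 58.1 in the wild type, the wild-type mean lying under the filter level of 70.49. It was therefore tested only through its dst values, and the size of its change is uncertain. It read 153.1, 234.6 and 217.7 in dst, against 30.7, 70.5 and 90.4 in the wild type. All dst values lay above all wild-type values. The measured log2 change was 1.77 ± 0.47 (95% interval 0.73 to 2.82, adjusted p 0.164 in limma), so it did not pass. Os5bglu19 and Os5bglu22, of the same run in gene order, did not pass either, with log2 changes of -0.02 ± 0.13 for Os5bglu19 and -0.15 ± 0.10 for Os5bglu22. Os5bglu22 read 4361, 4766 and 4168 in dst, against 4671, 5249 and 4840 in the wild type, and its groups overlapped.

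Os10bglu34 and Os12bglu38 were dim as well. Os10bglu34 read 135.1, 104.4 and 126.6 in dst, against 98.2, 87.2 and 64.9 in the wild type. The groups did not overlap, but the log2 change of 0.56 ± 0.37 had a 95% interval of -0.27 to 1.40. Os12bglu38, known for a part in the wall of rice pollen, read 141.6, 120.4 and 82.4 in dst, against 21.0, 56.2 and 40.8 in the wild type. Its dst arrays were the higher ones. Its mean lay under the filter, and in the fit with no filter its log2 change was 1.62 ± 0.55 (adjusted p 0.410 in limma), with a wild-type geometric mean of 36.4.

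Os6bglu25, Os1bglu3 and Os8bglu27 had the 3 lowest log2 changes in their brightest probe sets, and none passed. Os6bglu25 read 876.8, 988.3 and 972.8 in dst, against 1624, 1264 and 1160 in the wild type. All dst values were lower, with a log2 change of -0.50 ± 0.15 (adjusted p of 0.234 in limma). Os1bglu3 read 519.2, 557.2 and 578.5 in dst, against 630.2, 772.2 and 893.7 in the wild type, a log2 change of -0.46 ± 0.16. A second probe set of Os1bglu3 pointed the same way, at 436.0, 287.8 and 288.9 in dst against 507.2, 644.1 and 573.1 in the wild type, with -0.79 ± 0.21 on the log2 scale (adjusted p of 0.158). The groups were apart in both of these, while the third and dimmest overlapped, at 80.5 ± 63.4 in dst and 92.5 ± 18.6 in the wild type (SD, n = 3 each). Os8bglu27 read 1626, 1496 and 1837 in dst, against 2277, 1905 and 2184 in the wild type. The highest dst array came close to the lowest wild-type array without reaching it, and the log2 change was -0.36 ± 0.12. Os8bglu28, the next gene in order, measured -0.07 ± 0.12 with overlapping groups.

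The monolignol beta-glucosidases Os4bglu14, Os4bglu16 and Os4bglu18, known to act on glucosides of lignin precursors, form a run on chromosome 4. Their log2 changes were -0.20 ± 0.23, 0.20 ± 0.14 and -0.07 ± 0.19, and dst and wild-type values overlapped in all 3. Os4bglu16 averaged 2301 ± 185 in dst and 2026 ± 356 in the wild type (SD, n = 3 each). Its second probe set gave 0.10 ± 0.12.

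Another run on chromosome 4 holds Os4bglu9, Os4bglu10, Os4bglu12 and Os4bglu13. Os4bglu12 and Os4bglu13 are known to release tuberonic acid, a relative of jasmonic acid, from its glucoside. Os4bglu12 averaged 1628 ± 310 in dst and 1285 ± 19.5 in the wild type (SD, n = 3 each). Its first and second dst arrays lay above the wild type while the third lay among the wild-type values, and the log2 change of 0.32 ± 0.15 did not pass. Its dimmer probe set lay under the filter and averaged 38.3 ± 45.8 in dst and 41.5 ± 13.8 in the wild type. Os4bglu13 averaged 745.5 ± 233 in dst and 923.4 ± 115 in the wild type, a log2 change of -0.36 ± 0.24, with 1 dst array lowest at 476.5. Its dimmer probe set measured 0.41 ± 0.35, and the 95% intervals of its 2 probe sets overlapped. Os4bglu9 measured -0.17 ± 0.35.

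Os9bglu31, known as a vacuolar transglucosidase that moves glucose between phenolic acids and hormones, read 4724, 3977 and 5419 in dst, against 3584, 5012 and 5663 in the wild type. The groups interleaved, and the log2 change was 0.00047 with a 95% interval of -0.40 to 0.40. It lies in a run with Os9bglu32 and Os9bglu33, which measured 0.12 ± 0.17 and -0.28 ± 0.16. A dimmer probe set of Os9bglu32 averaged 383.7 ± 53.2 in dst and 313.3 ± 39.9 in the wild type (SD, n = 3 each), with its groups just apart and a log2 change of 0.29 ± 0.19 that did not pass. The remaining members, Os1bglu1, Os1bglu5 and Os3bglu6, measured -0.26 ± 0.52, 0.02 ± 0.13 and -0.03 ± 0.17, and the dimmer probe set of Os1bglu5 measured 0.12. Os3bglu6 is known to hydrolyse hydrophobic glycosides.

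Among the 17 tested genes whose groups overlapped in the brightest probe set, log2 changes of that probe set ran from -0.36 to 0.32. For 21 of the 25 genes that did not pass, the 95% interval of the brightest probe set lay within a 2-fold change in either direction. The other 4 are Os1bglu1, Os5bglu20, Os7bglu26 and Os10bglu34, for which a change of at least 2-fold was compatible with the interval. The 21 include Os11bglu36, Os4bglu10, Os1bglu3 and Os4bglu13, for which the interval of a dimmer probe set reached past 2-fold. For the s_at probe set of Os11bglu36 it ran from -1.71 to -0.85 on the log2 scale. These 21 genes are therefore not all bounded within 2-fold.

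**Figure D3:**
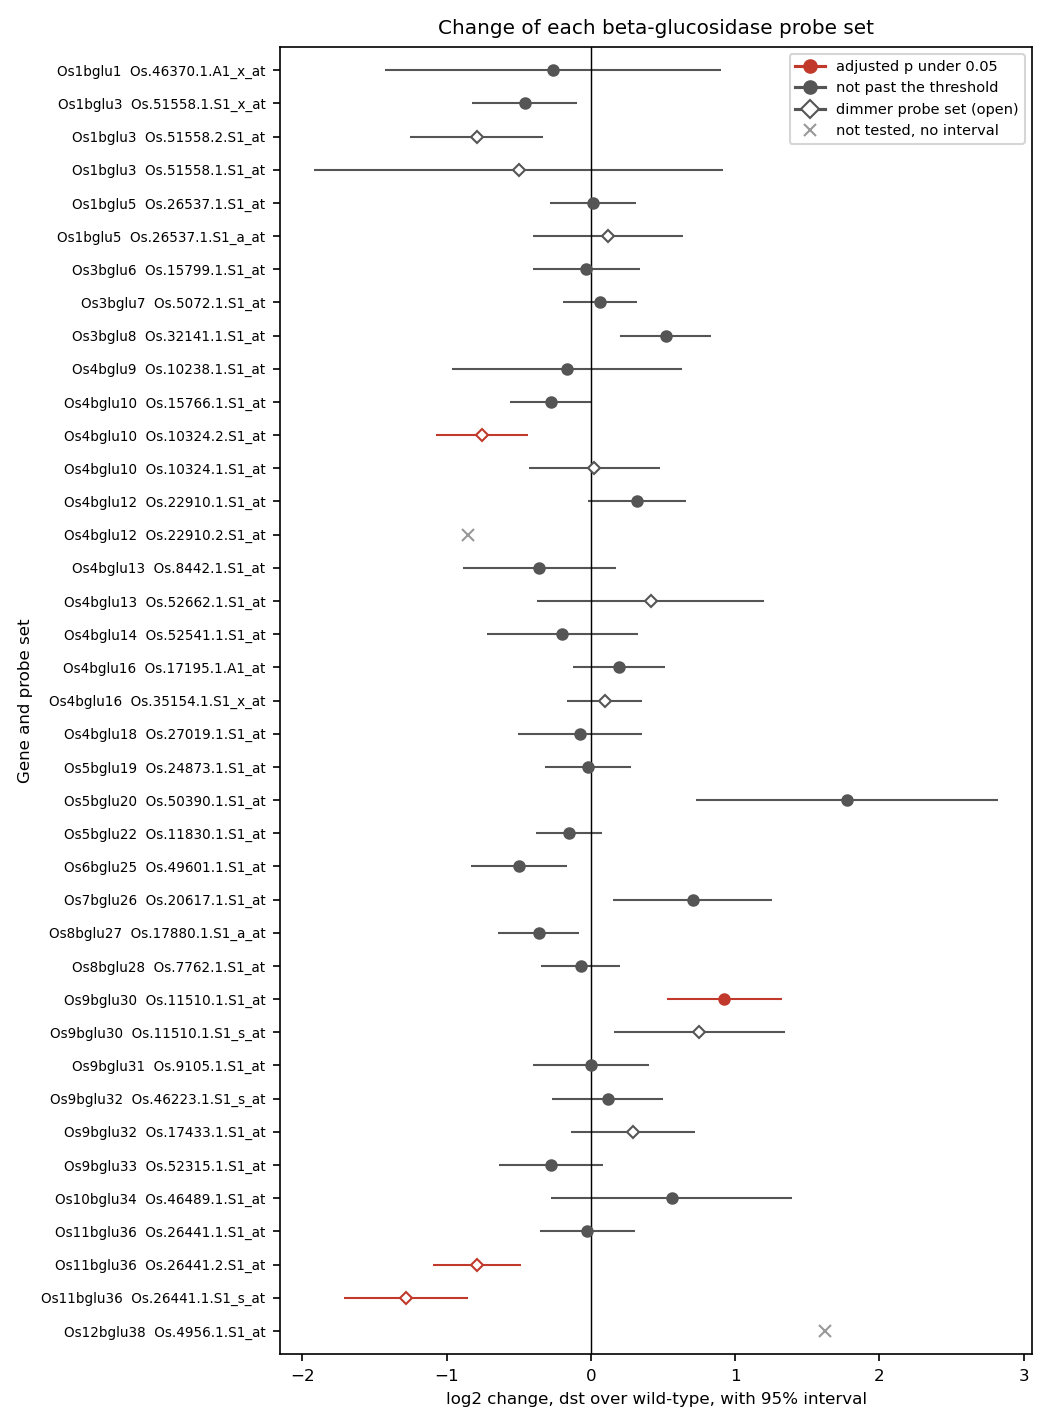
Log2 change in signal, dst over wild-type, for each of the 39 beta-glucosidase probe sets, with 95% intervals from limma. Filled circles are brightest probe sets, open diamonds dimmer ones, red marks an adjusted p under 0.05, and crosses are the 2 probe sets under the filter, with no interval. The 4 called probe sets are 1 of Os9bglu30, to the right of 0, and 2 of Os11bglu36 and 1 of Os4bglu10, to the left.

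Of the 31 named genes, 20 lie in 7 runs of at least 2, with no more than 5 other protein-coding genes between neighbours. Os9bglu30 is in none of them, and no gene of a run was called in its brightest probe set. Differences between genes of a run were not tested. The order of other tested genes around the members was also examined, with 25 tested genes on either side, a width chosen after the values were seen. For 22 of the 26 members none of these 50 genes was called. Of all tested genes 70.0% had none called, a lower share, and members of a run share neighbours. Os11bglu36 had 4 of its 50 neighbours called, a number reached or exceeded by 1.71% of all tested genes. It is picked out here as the highest of the 26 members. The 4 also include LOC4351143, which was tested only through its wild-type values. This share is therefore a description and no support.

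These 4 neighbours, named here after their values were seen, carry no name beyond a locus number in the gene table, so no role is given. LOC4351143, the 4th tested gene from it, averaged 15.3 ± 0.924 in dst and 453.9 ± 8.29 in the wild type (SD, n = 3 each), and passed (adjusted p 4.3e-04 in limma). Its dst values lay far under the filter level, so it was tested only through the wild type and the size of its fall is not given. LOC4351095, the 8th, averaged 343.8 ± 122 in dst and 2416 ± 322 in the wild type, a log2 change of -2.86. LOC4351147, the 6th, averaged 79.2 ± 21.9 in dst and 492.9 ± 181 in the wild type, a log2 change of -2.61, on an s_at probe set. These 3 fell. In the other direction LOC4351178, the 10th, averaged 976.3 ± 113 in dst and 89.5 ± 58.1 in the wild type, a log2 change of 3.75 (adjusted p 0.0108 in limma). Its wild-type geometric mean was 72.2, and the dst geometric mean of LOC4351147 was 77.2. Both lay just above the filter level of 70.49, so the sizes of these changes are uncertain. A bearing of this stretch on the probe sets of Os11bglu36 was not tested.

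**Figure D4:**
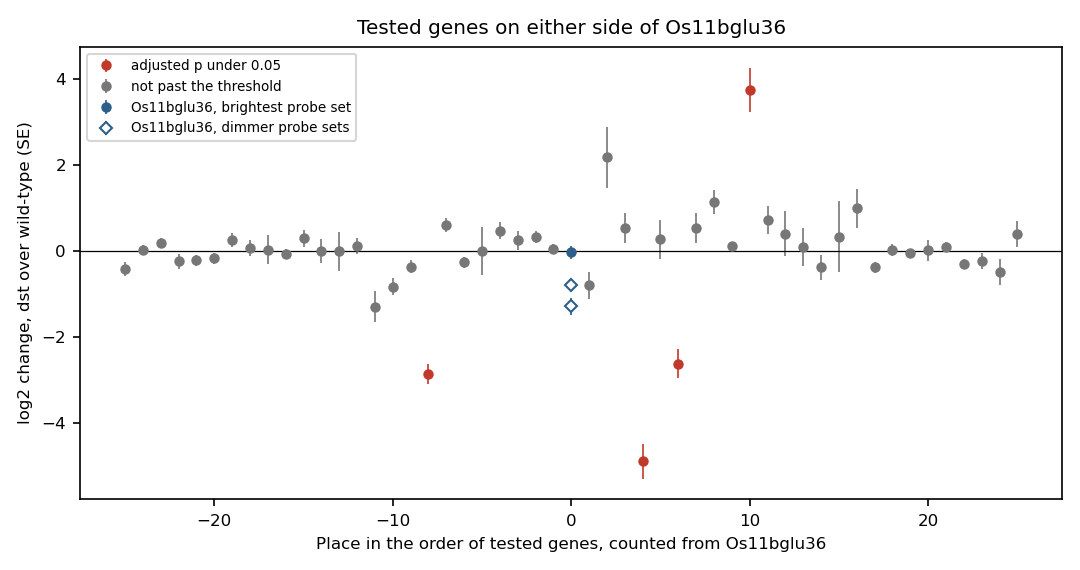
Log2 change, dst over wild-type, of the 25 tested genes on either side of Os11bglu36, by their place in the gene order, with SE bars. The 4 called genes, in red, lie within 10 places of Os11bglu36, whose dimmer probe sets are drawn as open diamonds under its brightest.

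Other genes of the same substrates were read from name lists chosen with earlier results of these data known. Of 27 tested genes on the name list for monolignol and lignin synthesis, 2 fell, none rose and 25 did not pass in limma. Beside this, 0.987% of all tested genes were called. The list also drew 4CLL1, 4CLL4 and 4CLL7, whose part in lignin synthesis was not examined. Its counts and median may therefore not be of lignin genes alone. Of the 27, 11 averaged higher in dst, beside 54.3% of all tested genes, and the median log2 change was -0.28. LAC7, a laccase gene, averaged 2151 ± 605 in dst and 5232 ± 305 in the wild type (SD, n = 3 each), a log2 change of -1.32 ± 0.18 (adjusted p 0.00884 in limma). 4CL2, a gene of 4-coumarate:CoA ligase, averaged 773.1 ± 122 in dst and 1352 ± 130 in the wild type, a log2 change of -0.81 ± 0.15 (adjusted p 0.0423). Endo-beta-glucanases cut within glucan chains and leave the oligosaccharides that beta-glucosidases take up. Of 10 tested genes on the list of their names none passed, with a median log2 change of 0.22 and 6 of 10 higher in dst. That list also drew GLN2, a name of glutamine synthetase, at -0.14 ± 0.09. Its counts and median are therefore not of endo-beta-glucanases alone. The smallest p among the 10 were those of GLU13, at 0.90 ± 0.18 (adjusted p 0.0646 in limma), and OsCel9E, at 0.62 ± 0.15 with an adjusted p of 0.126. Of 4 tested mannanase genes none passed, and their median log2 change was 0.44, with higher means in dst in 4 of 4, beside 54.3% of all tested genes. MAN1 averaged 4294 ± 572 in dst and 3128 ± 574 in the wild type, and MAN4 280.8 ± 43.0 in dst and 201.5 ± 26.2 in the wild type. MAN7 measured 0.42 ± 0.57 and MAN6 0.08 ± 0.11 on the log2 scale.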

How the data were processed

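The deposited table holds 1 signal intensity per probe set and array for 57381 probe sets, which the authors made from 6 arrays. Which software and scaling gave these values is not given in the sources used here, and their mean after trimming 2% at either end was 500.1 on each array. Trizol was used for RNA extraction and biotin for labelling, per the labels' protocols. Values were taken to log2 with a floor of 1. The 187 control probe sets and those with a mean under the 40th percentile were left out, which left 34316. No further normalization was applied. The comparison used limma 3.58.1 under R 4.3.3 (mean-variance trend, no covariates, Benjamini-Hochberg adjustment), and adjusted p-values of single probe sets come from this model. The procedure was also run on simulated data with independent noise and no shared array or RNA quality effect. It therefore does not bear on such effects in these arrays, and its outcome is not given here. Plots were drawn with matplotlib 3.10.9.

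Of the rice probe sets, 22436 have 1 gene in the platform annotation, 95 several and 34663 none. Names came through a RefSeq gene table (assembly ASM3414082v1), used for names and gene order only. The members and lists were chosen with earlier results of these data known. Every member is named, with per-array signals for those called in any probe set, those whose groups did not overlap, the 3 largest changes in either direction and the 3 brightest. A list planned for glucosyltransferases drew seed storage genes by name and is not used, and EXO1, an exonuclease name, was left out of the related lists. No sequences are printed.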

Additional observations from a re-analysis of the deposited data

How the results depend on the processing

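The count of changed beta-glucosidase genes was 1, Os9bglu30. It was 0 with quantile normalization, with no filter on low signal, without the mean-variance trend, with replicates 1 and 2 only, with the mean of all probe sets of a gene and at an adjusted p under 0.01, where 7 to 9 genes had an unadjusted p under 0.05 in limma. It was 3 when any probe set of a gene counted and 0 to 1 when single arrays were dropped, with 5 to 9 at an unadjusted p under 0.05. Os9bglu30 kept its call in 7 of 17 alternatives (adjusted p 0.0117 to 0.244 in limma), and its direction held in all 17. Of the calls in dimmer probe sets, that of Os4bglu10 was kept in 5 of 16 alternatives. For Os11bglu36 the middle probe set kept its call in 8 of 16 and the s_at probe set in 11 of 16. Among all probe sets 317 passed, against 122 at an adjusted p under 0.01, 80 without the trend, 532 with array weights, 606 where the third arrays formed a block, 463 with the replicate block and 118 to 280 with 1 array left out. The 2 changed genes of the related lists became 1 at an adjusted p under 0.01, with no filter and with replicates 1 and 2 only, 0 without the trend, 4 with array weights and with the replicate block, 6 where the third arrays formed a block, and 0 to 3 with 1 array left out. The median log2 change of the family turned to 0.020 with replicates 1 and 2 only. Deviations from the group means correlated at 0.051 and 0.052 for replicate numbers 1 and 2, which gave no sign of pairing the samples. For number 3 the correlation was 0.204. Only 2 of 6 arrays correlated best with their own number, and these were replicate 3 of dst and of the wild type. Both also had a lower highest signal than the other arrays, 32620 in dst and 31461 in the wild type. What these 2 arrays share was not tested. The replicate block left the count of beta-glucosidase genes at 1. Apart from the stricter threshold, which lowers a count by construction, the causes were not tested.

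Direction held in every alternative for 15 genes and turned in at least 1 for the other 11, none of which passed in its brightest probe set or exceeded 0.36 in size on the log2 scale as reported. In the alternatives some went further, up to -0.70 for Os11bglu36 with the mean of all probe sets. With array weights Os1bglu5 turned to -0.0060, Os3bglu6 to 0.0791, Os4bglu9 to 0.0831 and Os9bglu31 to -0.0825. With median centring Os1bglu5 turned to -0.0165 and Os9bglu31 to -0.0325. With replicates 1 and 2 only Os4bglu9 turned to 0.119, Os4bglu18 to 0.0076 and Os5bglu19 to 0.0623, and with the mean of all probe sets Os4bglu13 turned to 0.0283. With 1 array left out the log2 change ran from -0.599 to 0.0131 for Os1bglu1, -0.0505 to 0.0960 for Os1bglu5, -0.147 to 0.0992 for Os3bglu6, -0.0096 to 0.141 for Os3bglu7, -0.442 to 0.222 for Os4bglu9, -0.134 to 0.0403 for Os5bglu19, -0.19 to 0.14 for Os9bglu31, -0.0704 to 0.238 for Os9bglu32 and -0.121 to 0.0312 for Os11bglu36. Without detection calls the signal over background is unknown, which limits the sizes of changes in Os5bglu20, Os10bglu34, Os12bglu38, Os1bglu1, LOC4351143, LOC4351147 and LOC4351178.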
